A study of Arabidopsis thaliana with 2 samples.

Results

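Splicing events were described in 4 transcripts of the splicing machinery of Arabidopsis thaliana: SR30 (AT1G09140), AT2G29210, AT3G04160 and MEE5 (AT1G06220, also called GFA1 and CLOTHO). They were found as all rows of the 4 deposited event tables whose gene identifier belongs to one of these loci, which gave 4 events, 1 per gene, of 270 events in 227 genes. The tables compare embryos of the Col-0 ecotype dissected from siliques between the globular and heart stages, from wild-type plants and from a mutant called lefko1 in the label of the sample and lefko2 in the series title and the table headings. There is 1 sample per genotype, and the labels name neither the mutated gene nor the number of plants or embryos. Each cell of a table joins 3 read counts of unstated kind (cultures, libraries or runs), so the 3 are called values here and not replicates. A p-value on their summed reads compares the 2 samples and not the genotypes. The tables hold events only, so markers of embryo tissue and gene expression were not analysed here.

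Pre-mRNA introns are removed by the spliceosome, which assembles on the 5′ splice site, at the start of the intron, and the 3′ splice site, at its end. SR proteins such as SR30 bind exons through RNA recognition motifs and recruit spliceosome parts through a domain rich in serine and arginine. PWI-domain proteins, to which AT2G29210 is assigned by the annotation, act as splicing coactivators in animals. AT3G04160 is annotated as a protein of the U11/U12 particle, which recognises the rare introns of the minor spliceosome. MEE5 resembles yeast Snu114, a GTPase of the U5 particle that takes part in activating the spliceosome, and its loss in Arabidopsis impairs the female gametophyte. Transcripts of splicing factors are themselves often spliced in several ways in plants, and SR30 is annotated as acting on its own transcript.

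The splice sites of the events are given here 5′ to 3′ on the transcribed strand, from the TAIR10.1 RefSeq genome, with the terminal intron bases (GT or AG) in capitals. They mark the ends of the listed segments and, for SR30 and AT2G29210, help to show what the alternative forms encode. Whether inclusion reads were counted only at these ends or also inside a segment is not stated. For SR30 the shared 5′ site, the 3′ site of the listed intron and the 3′ site used by isoform 1 were the following.
SR30 5′ site, chr1:2944149-2944178, minus strand: ctgtctcaagGTatgagtgttagatttgta
SR30 listed 3′ site, chr1:2943560-2943589, minus strand: ttgtattgcgttgtttgttttctAGatctg
SR30 isoform 1 3′ site, chr1:2943222-2943251, minus strand: catggggtttttggtcttgctgcAGgtccc
SR30 5′ site with the stop codon of the retained form in capitals: ctgtctcaaggtatgagtgtTAGatttgta
AT2G29210 whole listed segment, chr2:12560724-12560780, plus strand: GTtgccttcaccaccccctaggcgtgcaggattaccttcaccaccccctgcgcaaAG
AT3G04160 5′ site, chr3:1091615-1091644, minus strand: ttaaaagaagGTaagtcattttaaaactct
AT3G04160 3′ site, chr3:1091545-1091574, minus strand: gtggtttattccgatgatcttgcAGtaaaa
MEE5 3′ site before the exon, chr1:1900272-1900301, plus strand: accttaagtttctggttgattctAGctttt
MEE5 5′ site after the exon, chr1:1900420-1900449, plus strand: tgattttgtgGTaatgcactcatttgactt

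**Figure D1:**
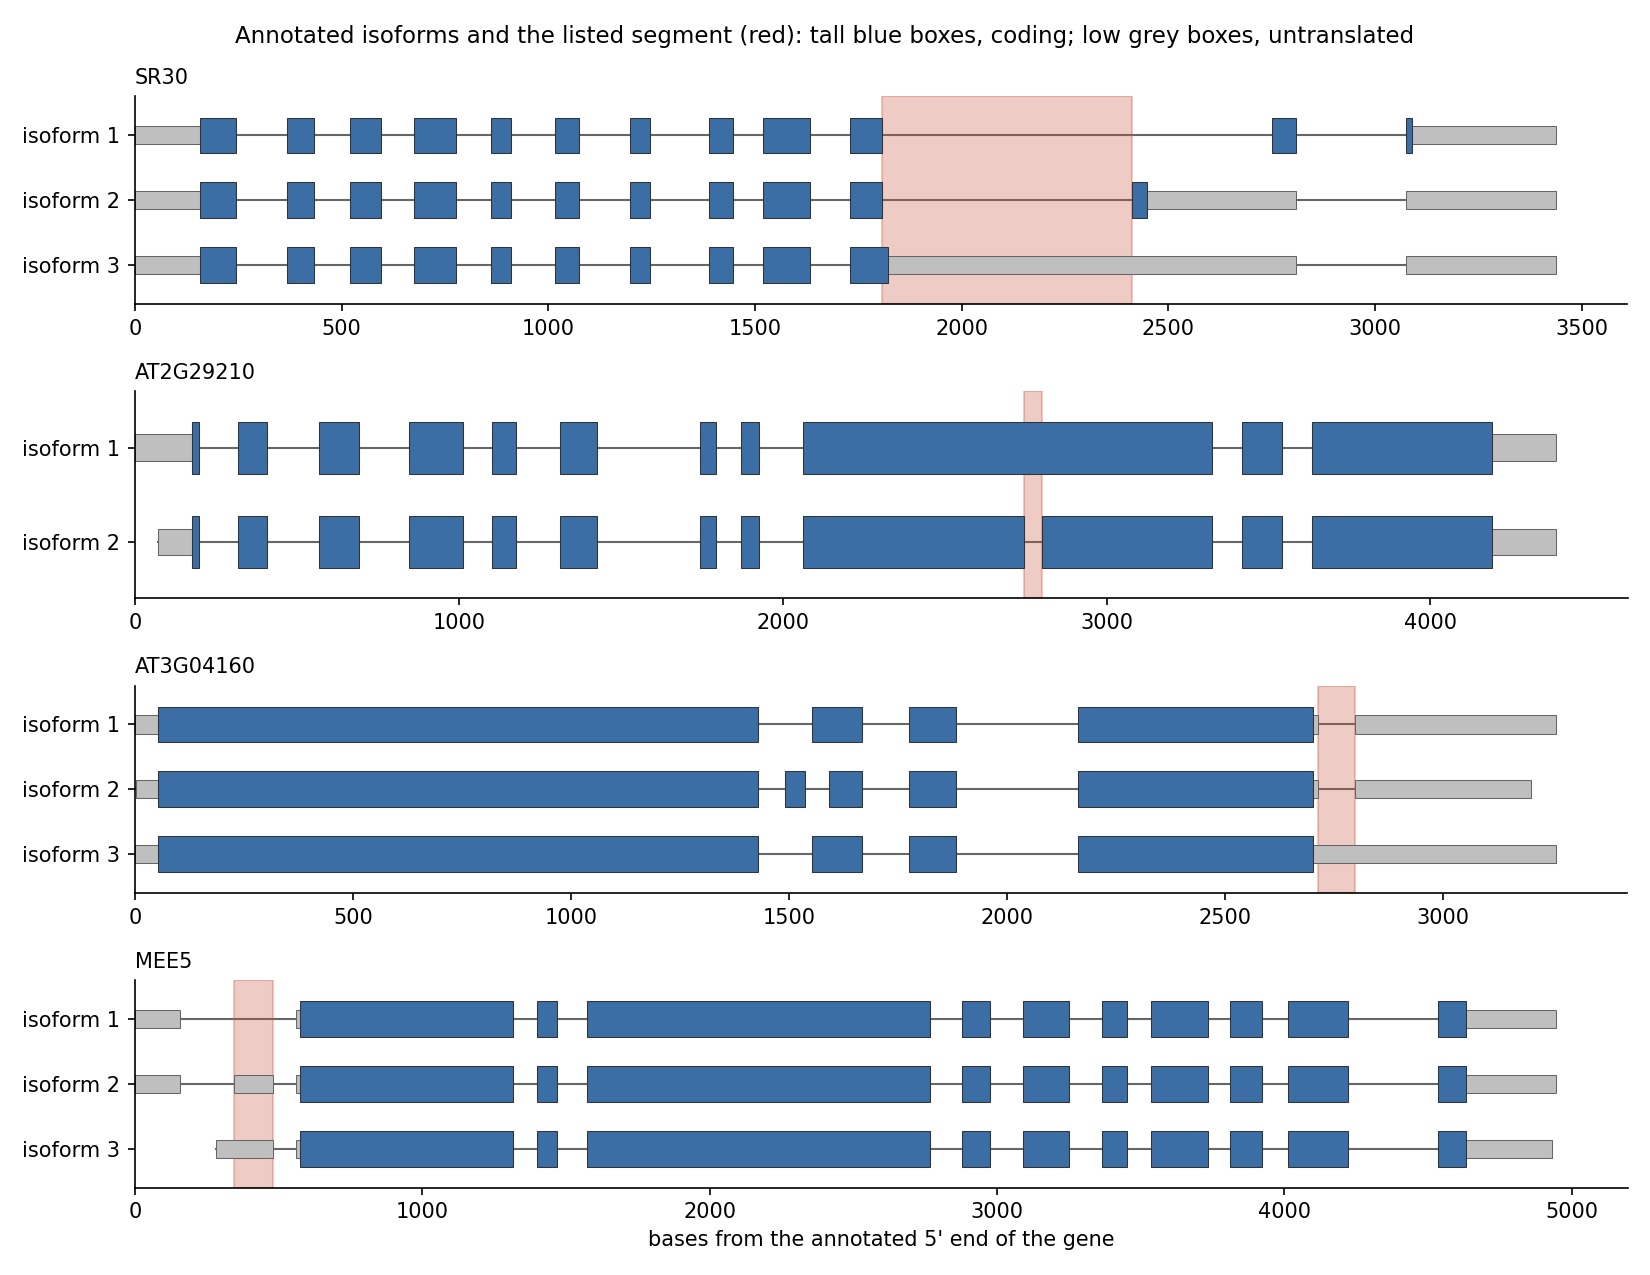
Annotated isoforms of the 4 genes, drawn to scale in bases from the annotated 5′ end of each gene (x axis), one row per isoform, with coding parts as tall blue boxes, untranslated exon parts as low grey boxes and the listed segment in red. The segment lies downstream of coding exons shared by all isoforms in SR30, inside a coding exon in AT2G29210, in the 3′ untranslated region of AT3G04160 and in the 5′ untranslated region of MEE5.

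The 4 events fell in 4 different places of the transcript. SR30 retained an intron downstream of its shared coding exons less often in the mutant sample. AT2G29210 and AT3G04160 retained theirs more often, and the share of an included leader exon of MEE5 was lower on very few reads. Retention was thus higher in 2 of 3 member introns, where 55.7% of the 115 listed retention events were higher, and the 1 member among 19 skipping events was lower, as were 26.3% of those. The 3 values of one genotype lay all above or all below those of the other in 3 of the 4 events, against 71.5% of all 270, so the members resembled the tables in this. By Fisher's exact test on summed reads (two-sided, Benjamini-Hochberg adjustment over the 270 events) 3 of 4 passed 0.05, against 84.1% of all. The adjustment leaves out events that were tested but not listed. The listed ones were chosen from the same reads, and the adjusted p-values given here do not correct for that choice. By totals recovered from the authors' p-values and FDRs, a table holds about 2.22% of 5174 retention events tested and 0.596% of 3187 skipping events. These totals are medians over the listed events. Within 1% of them lay the totals from 106 of the 115 listed retention events and 14 of the 19 skipping events. All these events were listed for a difference. No count of members therefore says that splicing factors were affected more often than other genes.

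**Figure D2:**
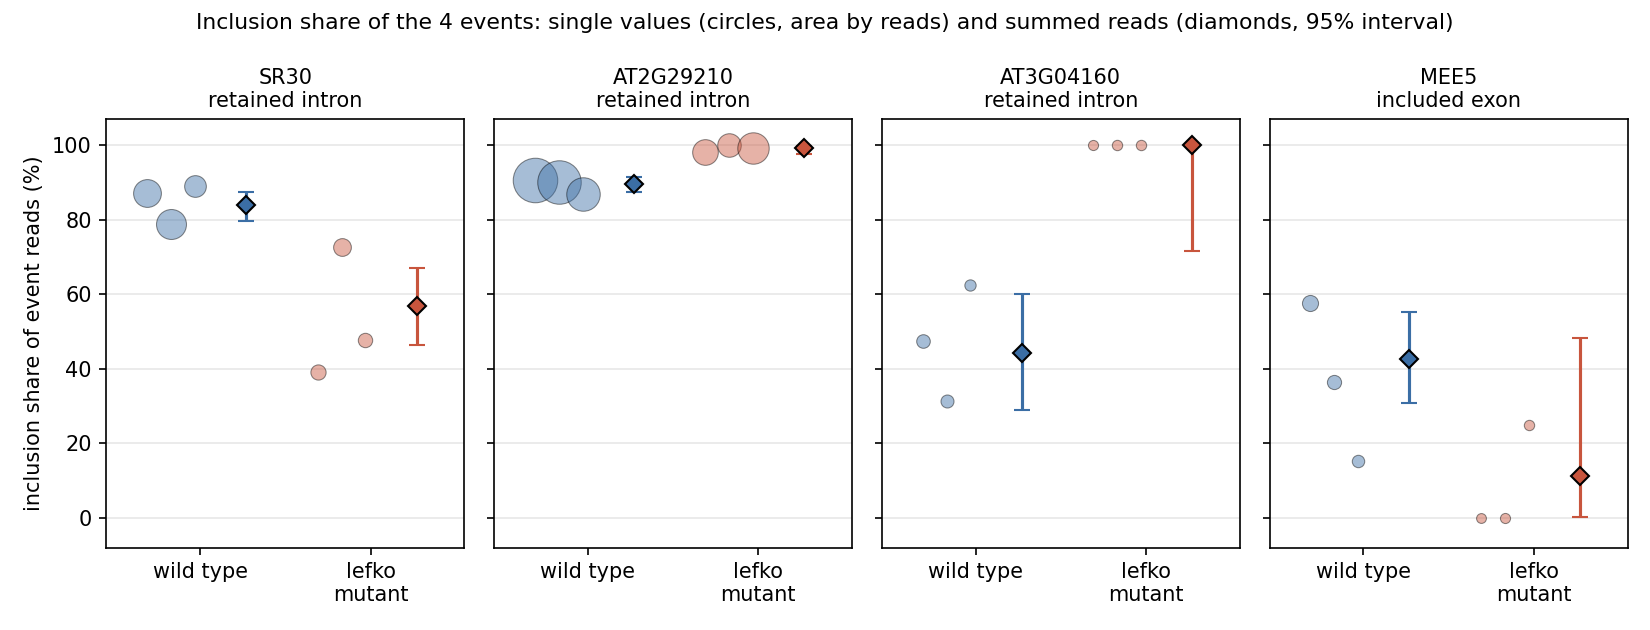
Inclusion share in percent (y axis) for the wild type (blue) and the lefko mutant (red), with circles for the 3 values of a genotype, sized by their reads, and diamonds for the summed reads with the exact 95% interval. The mutant values lie below the wild-type values in SR30, above them in AT2G29210 and AT3G04160, and overlap them in MEE5.

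SR30 retained its 604-base intron (chromosome 1, 2943565 to 2944168, minus strand) less often in the mutant sample. The wild-type values held 115 retained and 17 spliced reads, 123 and 33, and 66 and 8, which are shares of 87.1%, 78.8% and 89.2%. The mutant values held 11 retained and 17 spliced reads, 32 and 12, and 11 and 12, which are 39.3%, 72.7% and 47.8%. All mutant shares lay below all wild-type shares, but the second mutant value stood nearer to the wild type than to the other 2. The summed shares differed by -27.1 points (95% interval -37.7 to -16.8, counting error only), with a log2 odds ratio of -1.99 and adjusted p = 2.71e-07 in Fisher's exact test of the 2 samples. Without the second mutant value the difference was -40.8 points. The mutant values differed among themselves (exact Fisher-Freeman-Halton p = 0.0118), while the wild-type values did not pass that exact test (p = 0.0705). These p-values are not adjusted for the same test on the other events. The interval covers counting error only, so it leaves such a spread out. The difference ranked 59 of 115 in size among listed retention events, close to the median size of 27.1 points.

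The SR30 event compares 2 forms that both end their reading frame early. The annotation has 3 isoforms that share 244 complete codons before the intron. Isoform 3 keeps the intron and reaches the stop codon shown in capitals at intron bases 11 to 13, with 248 codons in all. Isoform 2 removes the listed intron and meets a stop at base 37 of the next exon, with 256 codons. Isoform 1, the longest protein at 268 codons, joins the same 5′ site to a 3′ site 338 bases farther on and so removes 942 bases. Its junction is neither the inclusion nor the skipping junction of this event, and no other SR30 row is listed, so the share says nothing on the level of isoform 1. The stop codon lies 987 bases before the last exon junction in isoform 3 and 359 bases before it in isoform 2, whereas isoform 1 ends 15 bases after its last junction. Stop codons far upstream of an exon junction are a known signal for nonsense-mediated decay, and decay was not measured here.

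The read counts of SR30 moved unequally. Retained reads came to 304 in the wild type and 54 in the mutant, a ratio of 0.178 (95% counting interval 0.130 to 0.238). Reads of the isoform 2 junction came to 58 and 41, a ratio of 0.707 (0.462 to 1.07). Over listed retention events with at least 10 wild-type reads of the kind, the median ratio was 0.462 for retained reads (middle range between quartiles 0.211 to 0.811) and 0.2 for skipping reads (0.0465 to 0.568). SR30 thus lay below the lower quartile for retained reads and above the upper quartile for junction reads, in a table chosen for differences. The counting interval of each ratio spans the quartile it is set against. Library totals were not analysed here, and in bulk tissue fewer cells with the transcript and less of it per cell cannot be told apart.

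**Figure D3:**
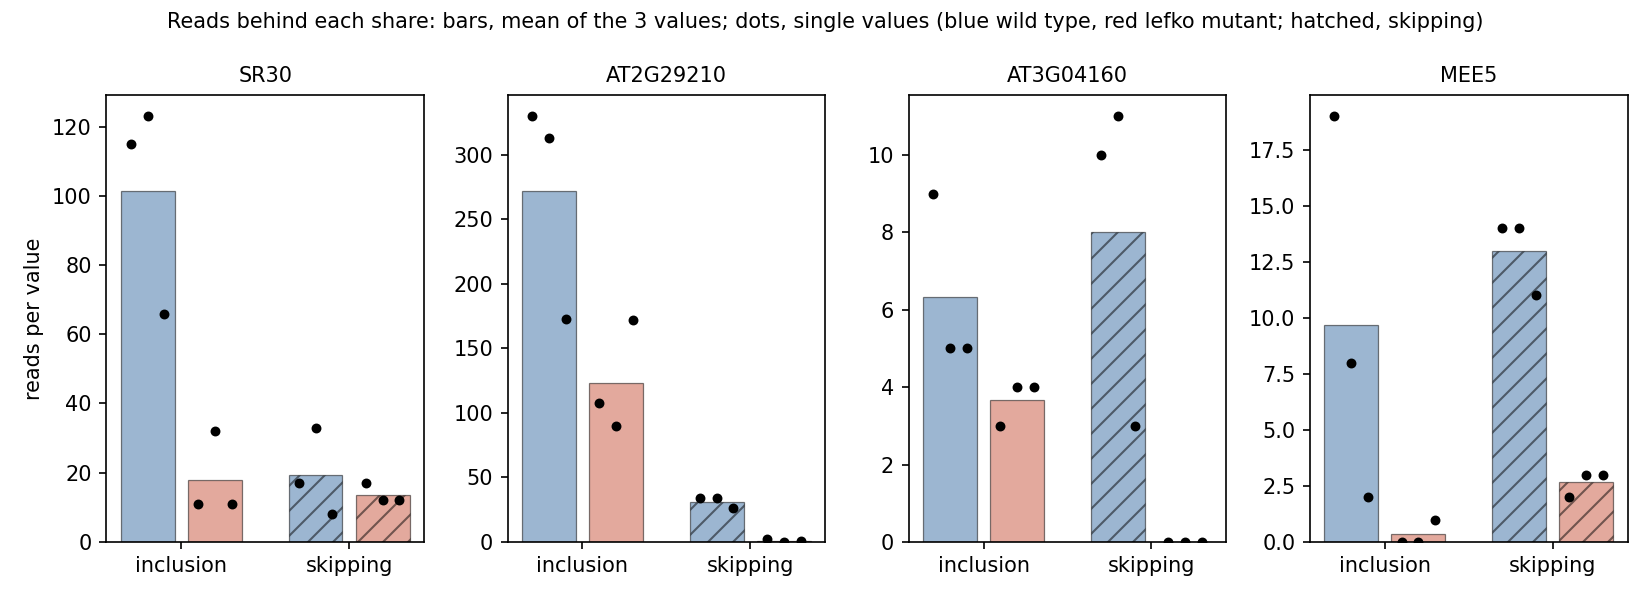
Reads per value (y axis, a separate scale for each gene) behind the shares of the 4 events, as inclusion reads and, hatched, skipping reads, with bars for the mean of the 3 values and dots for the single values, blue for the wild type and red for the lefko mutant. SR30 differed mostly in inclusion reads, whereas AT2G29210 and AT3G04160 had almost no skipping reads in the mutant, with 3 and 0.

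AT2G29210 kept a 57-base segment of its exon 9 (chromosome 2, 12560724 to 12560780, plus strand) in nearly all reads of the mutant sample. The wild-type values held 330 retained and 34 spliced reads, 313 and 34, and 173 and 26, or 90.7%, 90.2% and 86.9%. The mutant values held 108 and 2, 90 and 0, and 172 and 1, or 98.2%, 100% and 99.4%. The values of each genotype were close to each other and the genotypes did not overlap. The exact Fisher-Freeman-Halton test found no difference within the wild type (p = 0.357) or the mutant (p = 0.454). The summed shares differed by 9.53 points (7.15 to 11.7), with a log2 odds ratio of 3.61 and adjusted p = 1.12e-10 in Fisher's exact test of the 2 samples. The difference ranked only 105 of 115 in size, but the event had the 11th most reads of the table. With inclusion reads divided by 2, since a retained intron has 2 boundaries and a spliced one has 1 junction, the difference was 17.1 points and the log2 odds ratio 3.62.

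Spliced reads of AT2G29210 differed more between the samples than its retained reads. Spliced reads came to 94 in the wild type and 3 in the mutant, a ratio of 0.0319 (0.00647 to 0.0962). That interval spans the lower quartile of 0.0465 for listed retention events, which were chosen for differences. Retained reads came to 816 and 370, a ratio of 0.453 (0.400 to 0.513), near the median of 0.462. The segment is coding: isoform 1 retains it, with 878 codons, and isoform 2 removes it, with 859. Its length is a multiple of 3 and it holds 0 stop codons in frame, so the spliced form lacks 19 codons, from within codon 459 to within codon 478, and keeps the frame. Introns of this kind, inside an annotated coding exon, are known as exitrons.

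The AT2G29210 segment was unlike most introns in sequence. Its GC content was 61.4%, against a median of 32.7% over 133448 annotated introns of nuclear mRNA genes, and stood at the 99.95 percentile, while the exon around it had 55.7%. The 5′ site score was 2.70 bits (median of all introns 7.01, percentile 4.85) and the 3′ site score -3.46 bits (median 7.73, percentile 0.344). These scores sum, over 3 exon and 6 intron bases at the 5′ site and 14 intron bases and 1 exon base at the 3′ site, how much commoner each base is there than under equal base use. Plant introns are known to be rich in T, and T made up 19.3% of this one, against a median of 40.7%. The segment lay on a direct repeat: 48 bases at its start, 5 of them before its first base, recur 57 bases farther on around its end.
AT2G29210 first copy, chr2:12560719-12560766, plus strand: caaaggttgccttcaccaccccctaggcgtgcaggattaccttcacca
AT2G29210 second copy, chr2:12560776-12560823, plus strand: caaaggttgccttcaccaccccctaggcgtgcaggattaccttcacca
The copies are identical, so a read across the spliced junction has the same letters wherever within the repeat the 57 bases are taken out. Only 37 annotated introns (0.0277%) had as many matching bases at their ends. What the repeat does to the spliced reads was not tested.

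AT3G04160 retained an 85-base intron in its 3′ untranslated region (chromosome 3, 1091550 to 1091634, minus strand) in every mutant read. The wild-type values held 9 retained and 10 spliced reads, 5 and 11, and 5 and 3, or 47.4%, 31.2% and 62.5%. The mutant values held 3, 4 and 4 retained reads and 0 spliced reads. The genotypes did not overlap, but the mutant rests on 11 reads. A count of 0 of 11 allows a spliced share of up to 27.3% by the limit of 3 reads. The summed shares were 44.2% (29.1 to 60.1) and 100% (71.5 to 100), a difference of 55.8 points (26.0 to 69.6), with adjusted p = 0.00119 in Fisher's exact test of the 2 samples. Spliced reads came to 24 in the wild type and 0 in the mutant, a ratio of up to 0.125 by the limit of 3 reads and up to 0.166 by the 95% counting interval, and retained reads to 19 and 11, a ratio of 0.579 (0.249 to 1.28).

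The authors' deposited table gives the AT3G04160 event a p-value and an FDR of 0, which ranks it joint first in the table although it rests on 54 reads in all. Of the 5 retention events with a p-value of 0 in the authors' deposited table, 2 had 54 or fewer reads, and the median of the 5 was 670. By comparison the authors' deposited table gives FDRs of 0.00613 to SR30, 3.90e-06 to AT2G29210 and 0.0285 to MEE5. Isoforms 1 and 3 of AT3G04160 have 712 codons, and isoform 2, which also differs in its coding exons, has 714. Isoforms 1 and 2 splice the listed intron, while isoform 3 keeps it. The intron starts 12 bases after the stop codon, so the event itself leaves the coding sequence unchanged. Its 5′ site score of 11.9 bits was at the 99.9 percentile of annotated introns and its 3′ site score of 5.74 bits at the 24.9 percentile. Its GC content of 43.5% was at the 98.7 percentile.

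MEE5 included a 133-base exon of its 5′ untranslated region (chromosome 1, 1900297 to 1900429, plus strand) in 1 of 9 mutant reads, and the difference from the wild type was within counting error. The wild-type values held 19 inclusion and 14 skipping reads, 8 and 14, and 2 and 11, or 57.6%, 36.4% and 15.4%. The mutant values held 0 and 2, 0 and 3, and 1 and 3, or 0%, 0% and 25%. The highest mutant value lay above the lowest wild-type value, so the genotypes overlapped. The wild-type values differed among themselves (exact Fisher-Freeman-Halton p = 0.0281, unadjusted). The summed shares were 42.6% (30.7 to 55.2) and 11.1% (0.281 to 48.2), a difference of -31.5 points whose interval ran from -46.5 to 2.69. Fisher's exact test of the 2 samples gave p = 0.0824, adjusted p = 0.0923, while the authors listed the event. Without the first wild-type value the difference was -17.5 points, and with inclusion reads divided by 2 it was -21.2 points. The mutant had 0.132 times the event reads of the wild type (0.0580 to 0.266), the lowest ratio of the 4 genes.

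The MEE5 exon changes the leader and not the protein. Isoform 1 skips it and has a leader of 169 bases with 0 upstream ATG triplets. Isoform 2 includes it and has 302 bases with 3 upstream ATGs, the number the exon itself holds, and every frame opened by them closes within the leader, after at most 8 codons. Isoform 3 starts within the intron before the exon and shares the junction after it, so reads of that junction can come from a transcript start as well as from an included exon. All 3 isoforms encode 987 codons. Upstream ATGs are known to be able to lower translation of the main frame, and translation was not measured here. The 3′ site before the exon scored 3.55 bits (percentile 9.02) and the 3′ site after it, which both forms use, 12.3 bits (percentile 95.8). The 5′ sites before and after the exon scored 5.36 and 5.65 bits, at percentiles 23.7 and 28.3.

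**Figure D4:**
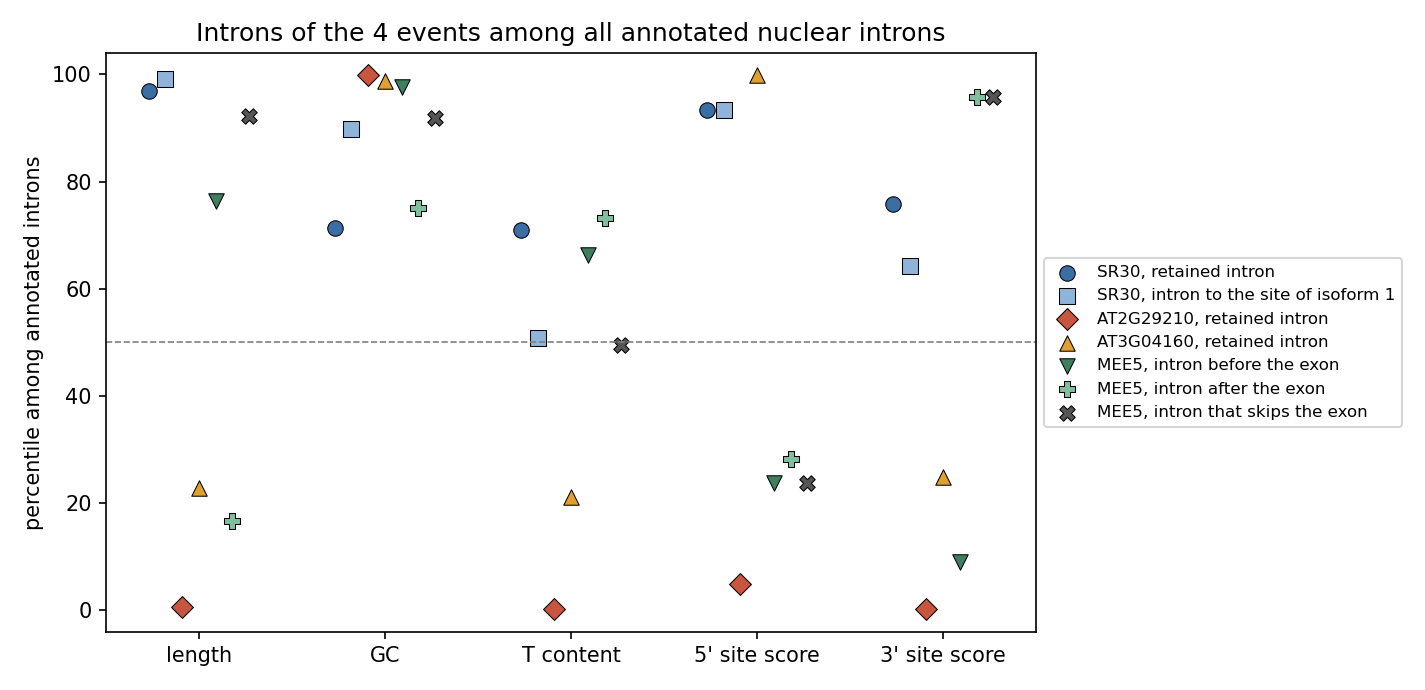
Percentile of each intron of the 4 events among annotated introns (y axis) for length, GC content, T content and the scores of the 5′ and 3′ splice sites (x axis), with 1 symbol per intron and the 50th percentile dashed. The AT2G29210 segment lies at the extremes throughout, with GC at 99.95 and the 3′ site at 0.344, while the SR30 introns lie above the middle in all measures.

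Of the 5 measures plotted, only a GC content above the median was shared by the introns of all 3 retention events. The SR30 intron was long (percentile 97.0) with a 5′ site score at percentile 93.3 and GC of 34.9% at percentile 71.4. Its 3′ site scored 9.64 bits, against 8.75 bits for the site of isoform 1. Among the 115 listed retention events, 1 segment was shorter than that of AT2G29210 and 4 were richer in GC, while 11 were longer than that of SR30. In each gene no other annotated intron was listed, of 12 in SR30, 11 in AT2G29210, 6 in AT3G04160 and 12 in MEE5. No other annotated gene overlapped the exons of these events, on either strand.

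**Figure D5:**
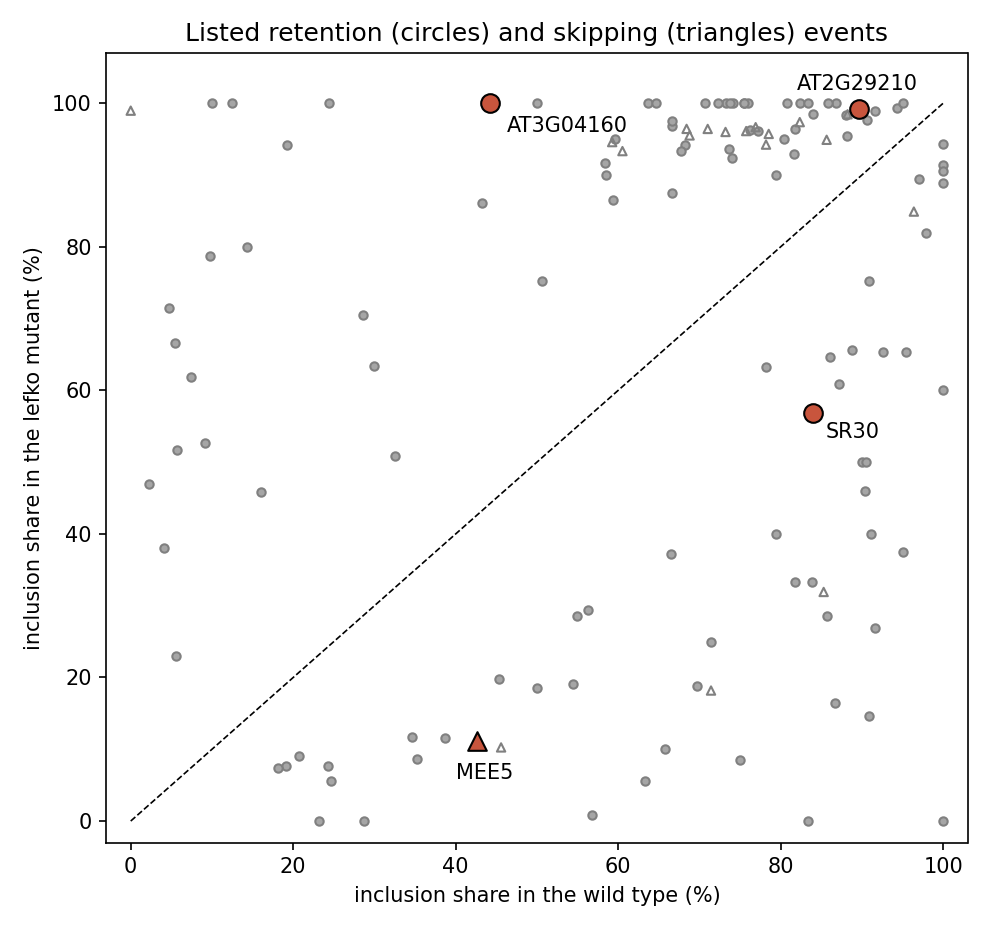
Inclusion share in the wild type (x axis, percent) against the lefko mutant (y axis, percent) for all listed retention events (grey circles) and skipping events (open triangles), with the 4 members in red and equality dashed. SR30 and MEE5 lie below the line and AT2G29210 and AT3G04160 above it, within the spread of the other listed events.

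The other genes on a partial list of the splicing machinery, drawn up for this comparison, had no listed event. Of the 62 genes on it, the 4 members were the only ones with a row: SR30 among 18 SR proteins, and AT2G29210, AT3G04160 and MEE5 among 31 spliceosome genes, a class in which the first 2 were put because they are members. No row belonged to the other 58, which included 17 SR proteins such as SR34, a close relative of SR30, 4 kinases of SR proteins such as AFC2, both cap-binding proteins, 5 splicing regulators such as GRP7 and PTB1, and 28 spliceosome genes such as PRP8A (SUS2) and U1-70K. These 28 included AT5G25230, a paralogue of MEE5. By the recovered totals, only about 0.596% to 3.50% of the events the authors tested in each table were listed. The genes with a tested event are not known, so 0 of 58 does not show that splicing of the 58 was the same in both samples.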

How the data were processed

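RNA of 1 wild-type and 1 lefko mutant embryo sample was compared. A TruSeq Low Input kit was used for the libraries, per the labels' protocols. The submitters' processing notes list HISAT2 2.0.4 and TAIR10. No source used here gives the event caller, the read length or the strandedness. What the authors deposited was read counts as 3 whole numbers joined in each cell, under IC and SC (read here as inclusion and skipping), with p-values and FDRs. Events had 4 to 3739 wild-type and 3 to 30376 mutant reads, so precision varies widely. Reads carry no stated molecular identifiers, and intervals and floors cover counting error only.

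The planned design assumed this format: counts were summed per genotype, and the share is inclusion over all event reads, with exact Clopper-Pearson intervals, Newcombe intervals of differences, and log2 odds ratios with 0.5 reads added. Shares were not corrected for length. Tests used SciPy 1.17.1 in Python 3.11.15 and were tested on simulated data. Starts in the tables count from 0 and are printed from 1. Chromosome accessions equal those of TAIR10.1 RefSeq, which gave sequence, isoforms and symbols for all 4 genes. All rows of the members are named. Members, gene lists and tests were chosen with earlier results of these data known.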

Additional observations from a re-analysis of the deposited data

How the results depend on the processing

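All 4 differences kept their direction under every alternative run, and the adjusted p of Fisher's exact test kept its side of 0.05, from 1.01e-10 to 0.0173 over SR30, AT2G29210 and AT3G04160 and from 0.0791 to 0.443 for MEE5. Leaving out 1 of the 3 values of a genotype gave differences of -40.8 to -19.8 points for SR30, 8.76 to 10.2 for AT2G29210, 48.1 to 60 for AT3G04160 and -42.6 to -17.5 for MEE5. With inclusion reads divided by 2, the difference moved to 17.1 points for AT2G29210 and 71.6 for AT3G04160, and it was -21.2 for MEE5. The test needs whole reads, so the divided reads were rounded up for it, and the 1 MEE5 inclusion read of the mutant stayed 1 (adjusted p = 0.443 in Fisher's exact test). MEE5 has 9 mutant reads and gave no value under a minimum of 10. Counts of listed events stayed within 1.5 times. No paired analysis was possible because each genotype is 1 sample, and nothing says that the 3 values pair across genotypes. Depth limits AT3G04160 and MEE5, with 11 and 9 mutant reads.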

Other observations

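The direct repeat at the AT2G29210 segment led to a count over the whole retention table, made after the repeat was seen and given with no test. Matching bases at both ends of the segment numbered at least 10 in 6 of the 115 listed retention events (5.22%) and in 0.218% of annotated introns. The listed segments include some not annotated as introns, so these 2 sets are unlike. The 6 were 3 events of M17, with 83 to 154 matching bases, AT2G29210 with 48, and 1 event each of the dehydrin genes LTI30 with 32 and RAB18 with 20. M17 encodes a late embryogenesis abundant protein. All 6 segments had GT and AG ends and a length divisible by 3, from 21 bases in RAB18 to 330 in M17. Of annotated introns, 98.7% had GT and AG ends and 33.2% had a length divisible by 3. The AT2G29210 segment was the only one of them annotated as an intron and the only one with a higher share in the mutant, at 89.7% and 99.2%. In the other 5 the share was lower, for example 100% and 91.4% in LTI30 and 100% and 90.6% in RAB18, in which event reads were far more numerous in the mutant (124 and 2251, and 856 and 20298). The 3 M17 segments overlap each other, so they are not separate cases. They had 11 to 33 wild-type and 141 to 485 mutant reads, whereas AT2G29210 had 910 wild-type and 373 mutant reads. For the M17 segments, Fisher's exact test of the 2 samples gave unadjusted p = 0.235 to 0.460. Their lower shares in the mutant were thus within counting error.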
